A study of Mus musculus with 6 samples.

Results

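The transcriptome of the whole mouse embryo at day 12 was described in 2 wild-type embryos, which were the 2 arrays titled wild type out of 6 in a study of the STAT3-K177K180R allele. The other 4 arrays came from 2 heterozygous and 2 homozygous embryos of the same age. They were used here only to show how far the 2 arrays of a genotype lie apart and whether a value that differed between the wild-type embryos was also seen in embryos outside the pair. No genotypes were contrasted. Embryos of the 3 genotypes shared a womb according to the labels, so the wild-type animals were littermates of mutants, and a wild-type embryo carried the unaltered Stat3 gene on both chromosomes. The titles and genotype field of the wild-type arrays also carry the word mutant and the name of the allele, and the extraction protocol names tumor tissue. These arrays were taken as wild type and as whole embryos, as the treatment protocol and tissue field have it. Each array measured total RNA of an embryo, amplified and labelled with the dye Cy3, so every value is an average over all tissues.

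By this stage of gestation the organs of the mouse have been laid down. The liver makes plasma proteins and is taking over blood formation from the yolk sac, the heart beats, limb mesenchyme condenses into cartilage, and neurons leave the cell cycle along the neural tube. In the eye, cells of the lens vesicle lengthen into fibre cells and fill with crystallins, the proteins that make the lens transparent and refractive.

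A gene was called detected where at least 1 of its probes was flagged well above background on both arrays. Of 32420 genes on the array, 23784 were detected (73.4%), 1015 were above background in 1 embryo only and 7621 in neither. Among the 20643 genes that could be given a symbol the detected share was 80.8%, or 16679 genes. Protein-coding genes were detected more often (82.1% of 19645) than long noncoding RNAs (53.2% of 792). The lowest signals flagged above background were 3.32 and 3.40 in embryos 1 and 2 on the log2 scale, and negative control spots had medians of 1.07 and 1.18. The detected genes spanned from there to 16.62, with a median of 8.68. Negative controls were flagged above background at 0 of 153 spots in embryo 1 and 1 of 153 in embryo 2. Spots of the same probe on an array varied with a median SD of 0.047 in embryo 1 and 0.056 in embryo 2 (log2, 10 spots per probe). Each embryo was measured on 1 array and none was repeated, so precision is limited by having 2 arrays, and no p-value could be had.

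**Figure D1:**
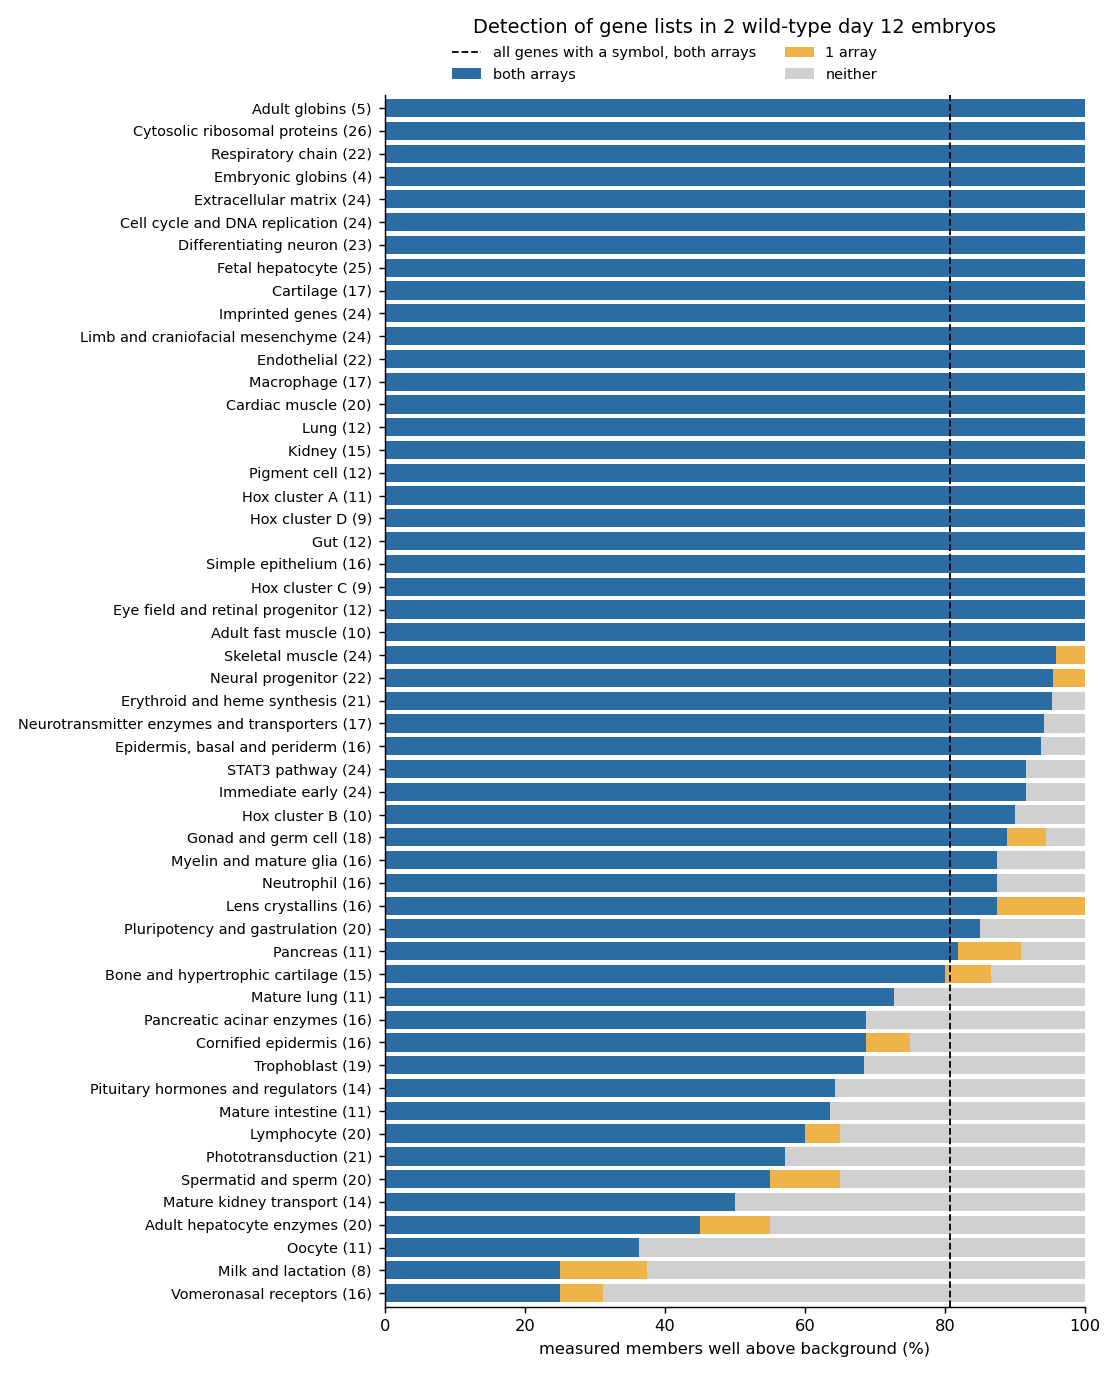
Share of the measured members of each gene list (number in brackets) that were well above background on both wild-type arrays (blue), on 1 array (yellow) or on neither (grey); the dashed line marks 80.8%, the share detected among all genes with a symbol. Most lists of embryonic organs lie at or near 100%, with pancreas (81.8%) and gonad and germ cell (88.9%) lower, and lists of mature cell functions lie mostly left of the line.

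Lists of genes for programs thought active in embryos (33 lists, 535 genes) had 518 members detected (96.8%), against 80.8% of all genes with a symbol. Lists for mature or absent tissues (18 lists, 280 genes) had 178 detected (63.6%). The median signal was 10.02 in the former and 4.96 in the latter. The lists were chosen and sorted with earlier results of these data known, so these shares describe the lists and test nothing. Of the lists of embryonic organs and cell types, those of cardiac muscle, cartilage, limb and craniofacial mesenchyme, fetal hepatocytes, endothelium, macrophages, differentiating neurons, kidney, lung and gut were detected in full. Lists of milk proteins, vomeronasal receptors and oocyte genes had the lowest shares. Counts of single lists below are to be read against the same 80.8%. RNA of a whole embryo does not separate fewer cells of a type from less RNA per cell. A gene below background in the embryo may still be present in a few cells. Some genes stand in several lists, so their signal cannot be assigned to a single organ.

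Genes of protein synthesis, red cells and the cytoskeleton were among the brightest. Gapdh, a glycolytic enzyme, gave the highest signal, at 16.68 in embryo 1 and 16.54 in embryo 2. The α-globin genes Hba-a1 (16.56 and 16.45) and Hba-a2 (16.36 and 16.24) were among the 25 brightest. So were Actb (16.32 and 16.21), which encodes cytoplasmic actin, and Col1a1 (16.54 and 15.81), a chain of type I collagen. Col1a1 was the member of the 25 that differed most between the embryos, by 0.77 after scaling. Ribosomal protein genes supplied Rpl36, Rpl41, Rpl10, Rpl35, Rps27 and Rpl10a, joined by the ubiquitin-like fusion gene Fau, by Tpt1, by Ldha and by the histone genes H2ac12 and H2ac22. The 100 brightest probes held 9.12% of all signal in embryo 1 and 8.82% in embryo 2, and the 1000 brightest held 46.0% and 44.9%.

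Not every bright probe was matched by the other probes of its gene. Those of Gapdh (7 probes) went down to 11.43 and 11.32. Ndor1, a flavin reductase, read 16.54 and 16.57 at its brightest probe and 7.82 and 7.51 at its other probe. Elk1, a transcription factor of the ETS family, read 16.38 and 16.32 at the brightest and 4.33 and 4.58 at the other. Kctd14 (16.27 and 16.22) fell to 5.91 and 5.86 at its dimmest probe, and Glrx2, a mitochondrial glutaredoxin (16.53 and 16.49), to 7.50 and 7.52. Med16, a Mediator subunit, read 16.28 and 16.22 at one probe and 10.11 and 10.20 at the other, and Ldha ranged from 16.22 and 16.29 down to 8.33 and 8.26. Exosc2 (16.56 and 16.45), Aspscr1 (16.23 and 16.21) and the olfactory receptor gene Olfr215 (16.38 and 16.43) each had a single probe. Of 5472 genes with a symbol and more than 1 probe, 4236 had all their probes above background on both arrays, 821 had some and 415 had none. A signal therefore belongs to a probe. The order above is one of signals, not of transcript amounts.

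Blood genes were bright in both embryos. Embryonic globins were all detected (4 of 4): Hbb-y, the embryonic β-like globin, read 16.01 and 15.79, Hba-x, the embryonic α-like globin, read 13.35 and 13.11, Hbb-bh1 read 13.27 and 13.16, and Hbb-bh2 was near background at 3.83 and 3.55. The globins of the adult type were detected as well (5 of 5), from Hba-a1 down to Hbb-b2 (15.35 and 15.22) and Hbb-bs (11.44 and 11.42). Globin paralogs share much of their sequence, so a probe may read more than its own gene. In the list of erythroid and heme synthesis genes 20 of 21 were detected. Its brightest members were the iron importer of mitochondria Slc25a37 (13.91 and 14.06) and the anion exchanger Slc4a1 (13.90 and 13.86), and the least bright detected members included Ank1 (8.15 and 8.14). Sptb, encoding erythrocyte β-spectrin, was not above background (3.55 and 3.51).

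Macrophage genes were all detected (17 of 17), led by the growth factor receptor Csf1r (12.07 and 12.18) and Lyz1 (11.10 and 11.36), with the transcription factor Spi1 (4.14 and 4.26) and Lyz2 (4.71 and 4.69) the dimmest. Among neutrophil genes 14 of 16 were detected, with the receptor Csf3r at 14.80 and 14.77 and the calcium-binding protein S100a9 at 12.38 and 12.60, while the surface proteins Cd177 (1.04 and 2.24) and Cxcr2 (3.0 and 2.89) were not. Of 20 lymphocyte genes 12 were detected. Cd4, which macrophages can also express, was the brightest at 10.31 and 10.24, Cd3e read 9.50 and 9.01, and the B-cell genes Ms4a1 (1.11 and 1.20) and Blk (1.02 and 1.11) were at the level of the negative controls. Vessel genes were detected in full (22 of 22), with Plvap (13.05 and 13.00) and Egfl7 (12.71 and 12.84) brightest and Erg (4.71 and 4.63) and Flt4 (5.18 and 5.04), a receptor of lymphatic endothelium, dimmest.

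The liver read as a fetal one. Every gene of the fetal hepatocyte list was detected (25 of 25). Afp, the fetal albumin-like plasma protein, gave 15.67 and 15.59, and Dlk1, a marker of hepatoblasts that other tissues also make, gave 15.37 and 15.35. The dimmest were the homeobox gene Prox1 (4.73 and 4.52) and the apolipoprotein gene Apoc3 (6.22 and 6.36). Of 20 enzymes and proteins of the adult hepatocyte, 9 were detected, 2 were above background in 1 embryo and 9 in neither. Tat, a tyrosine-degrading enzyme, was among the brightest of them. Cyp8b1 (1.26 and 1.39), an enzyme of bile acid synthesis, and Cyp4a14 (1.27 and 2.91) were the dimmest. Median signals were 11.47 for the fetal list and 3.31 for the adult one.

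Muscle genes of heart and body wall were on. All 20 cardiac genes were detected. Myl2, the regulatory light chain of ventricular myosin, read 12.44 and 12.09 and Myh7 read 12.01 and 11.71, and the dimmest were the transcription factor Tbx20 (5.31 and 5.23) and the peptide hormone Nppb (6.05 and 6.02). In the skeletal muscle list 23 of 24 were detected, led by the embryonic sarcomere genes Actc1 (15.09 and 14.96) and Myh3 (14.44 and 14.43), with Chrng (4.49 and 4.43), a fetal subunit of the acetylcholine receptor, dimmest. Mylpf was above background in embryo 2 only (2.93 and 3.51), next to the lowest signal that could be flagged. The 10 genes of adult fast muscle were all detected too, at a lower median (6.44 against 9.97 for the skeletal muscle list), from Pygm (9.30 and 9.18) to the adult myosins Myh2 (4.87 and 5.0) and Myh4 (4.32 and 4.16).

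Connective tissue and skeleton followed the same order. Extracellular matrix genes (24 of 24) were led by Col1a1 and Col3a1 (16.05 and 15.95), the fibrillar collagens of loose mesenchyme, and closed with Col6a2 (9.56 and 9.59) and Bgn (7.07 and 7.11). Cartilage genes (17 of 17) were led by Col2a1 (14.75 and 14.46) and Col9a1 (14.01 and 13.93), and Col9a3 (8.04 and 7.85) and Cnmd (8.89 and 8.86) were the dimmest. Bone and hypertrophic cartilage genes were detected in 12 of 15 cases (80%), near the 80.8% of all genes with a symbol. The bright ones were Ibsp (11.66 and 11.92), a bone matrix protein, and the phosphatase Alpl (11.52 and 11.81). Sost (2.59 and 3.28), which osteocytes make, and Mmp13 (3.33 and 3.25) were not above background, and Mepe (4.08 and 3.60) was so in 1 embryo. Transcription factors of limb and face mesenchyme were detected in full (24 of 24), from Pitx1 (12.99 and 12.97), a hindlimb and first-arch factor, and Twist1 (12.35 and 12.12) to Lmx1b (7.34 and 7.14) and Dlx6 (4.31 and 4.42).

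Neural genes were on from progenitor to neuron. Neuronal genes were detected in full (23 of 23), with the intermediate filament Ina (13.78 and 13.85) and the tubulin Tubb3 (13.68 and 13.82) brightest and Neurod4 (4.30 and 4.56) and Lhx1 (5.37 and 5.24) dimmest. Of 22 progenitor genes 21 were detected, led by Vim (14.83 and 14.89) and Fabp7 (13.47 and 13.63), both made by radial glia. Neurog1 (3.60 and 3.54) was above background in 1 embryo and Olig2, of motor neuron and oligodendrocyte progenitors, read 4.29 and 5.19. Neurotransmitter genes were detected in 16 of 17 cases, with Chat (10.56 and 10.59), the acetylcholine-making enzyme, and Slc17a6 (10.31 and 10.48), a glutamate transporter of vesicles, brightest. Tph2 (1.22 and 1.34), for serotonin synthesis in the brain, was off. The list of myelin and mature glia had 14 of 16 detected. Its brightest member was Ermn (14.90 and 14.92), and Pmp2 (1.05 and 1.13) and Opalin (2.11 and 1.07) were at or near the level of negative controls.

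Genes of the early eye were detected more often than those of phototransduction. All 12 genes of the eye field and retinal progenitors were detected, led by Lhx2 (11.28 and 11.84) and Otx2 (a mean of 10.29), with Vax1 (4.20 and 4.86) and Six6 (5.08 and 5.71) dimmest. Of 21 phototransduction genes 12 were detected. Guca1b (9.54 and 9.40) and Rom1 (9.12 and 9.30) were bright, while Rcvrn (1.13 and 1.22) and Grk1 (1.25 and 1.30) were not above background. Pigment cell genes were all detected (12 of 12), from Trpm1 (11.89 and 11.92) and Ednrb (10.48 and 10.35) to Oca2 (4.56 and 4.98) and Slc45a2 (3.43 and 3.74).

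Epithelia and the organs they line showed their early regulators. Simple epithelium genes (16 of 16) ran from Krt18 (10.75 and 10.92) and Esrp1 (10.72 and 10.89) to Cldn4 (4.32 and 4.24) and Rab25 (5.86 and 5.95). In the surface ectoderm list 15 of 16 were detected, with the basal keratin Krt5 (13.34 and 13.26) brightest and Krt4 (1.35 and 1.47) off. Cornified envelope and late epidermal genes were detected in 11 of 16 cases, with Lce1b (11.03 and 11.06) brightest and Flg2 (1.16 and 1.23) dimmest. The kidney list (15 of 15) was led by Eya1 (14.62 and 14.60) and Cited1 (11.60 and 11.53), whereas 7 of 14 genes of mature kidney transport were detected, Slc12a1 (1.02 and 1.12), the salt cotransporter of the loop of Henle, being the dimmest. Lung bud regulators (12 of 12) were led by Sox9 (12.56 and 12.51) and Id2 (12.43 and 12.54). Sox9 is also in the lists of cartilage and of gonad and germ cell. Genes of the mature lung were detected in 8 of 11 cases, Lamp3 (12.63 and 12.71) and Abca3 (11.09 and 11.38) being the brightest and Scgb3a1 (1.12 and 1.18) the dimmest.

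In the gut list (12 of 12) Hnf4a (10.93 and 11.18) and Ihh (10.30 and 10.26) were brightest and Cdx1 (5.60 and 5.88) dimmest. Hnf4a is also in the fetal hepatocyte list. Of the mature intestine genes 7 of 11 were detected, and Alpi (1.03 and 1.14), the intestinal phosphatase, was at the level of negative controls. Of 11 pancreas genes 9 were detected (81.8%), near the 80.8% of all genes with a symbol. The brightest was Neurog3 (12.43 and 12.77), the regulator of endocrine progenitors, whereas Pdx1 (1.98 and 1.83), the pancreatic master regulator, was not above background, and Pax4 was so in embryo 2 alone (2.08 and 5.63). Gonad and germ cell genes were detected in 16 of 18 cases, without Amh (1.90 and 2.81) and with Stra8 (4.16 and 2.93) above background in 1 embryo. The 16 include Sry, whose probe read alike in both embryos (4.19 and 4.18) and is taken up below. For spermatids the count was 11 of 20 and for oocytes 4 of 11.

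**Figure D2:**
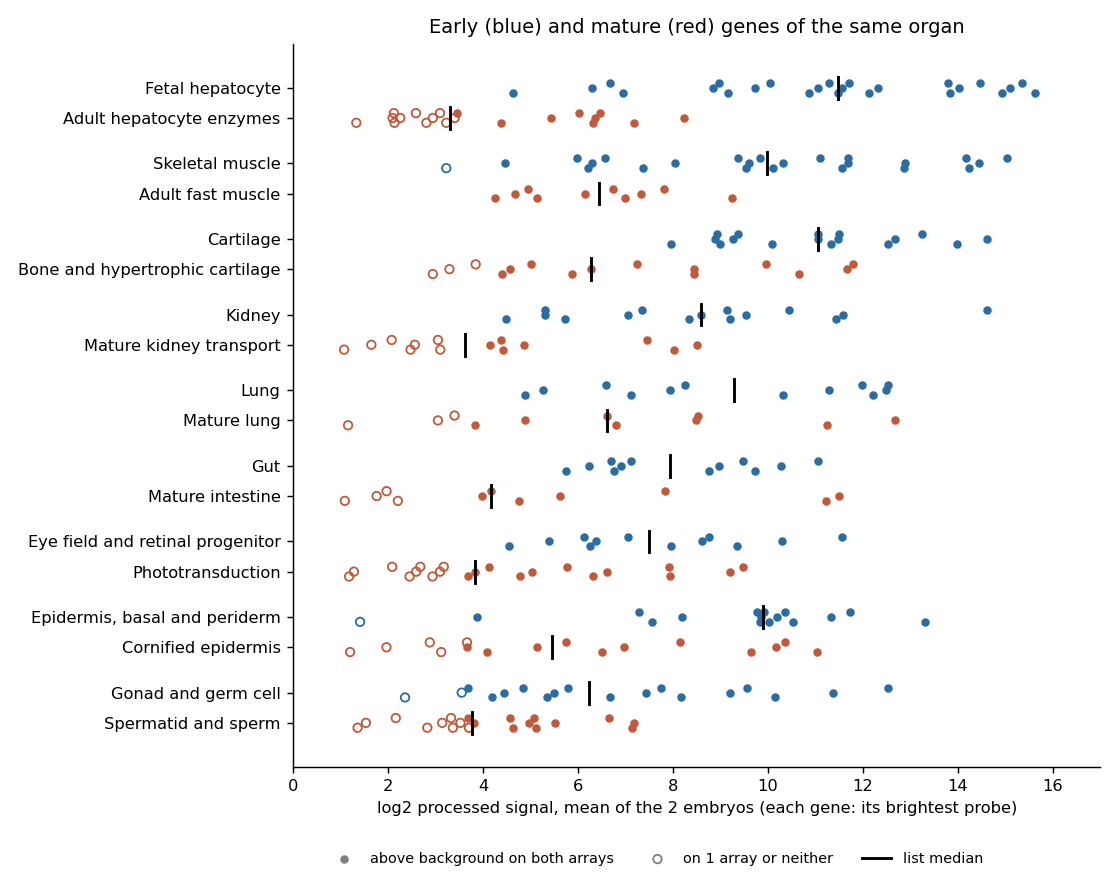
Mean log2 processed signal of each gene over the 2 wild-type embryos (its brightest probe), for early (blue) and mature (red) gene lists of the same organ; filled points were above background on both arrays, open points were not, and black bars are list medians. In each of these 9 pairs the median of the early list lies above that of the mature list, for example 11.47 against 3.31 for the liver and 8.59 against 3.61 for the kidney. Globins are not drawn, and their order was the reverse, with medians of 13.22 for the embryonic and 15.40 for the adult list.

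The Hox genes, which set position along the body axis, were on across nearly all paralogs: 11 of 11 in cluster A, 9 of 10 in B, 9 of 9 in C and 9 of 9 in D. Hoxb1, active in an early hindbrain segment, was the gene that was off (1.15 and 1.24). The brightest were Hoxa9 (13.23 and 12.99), Hoxc4 (11.43 and 11.56), Hoxb3 (10.70 and 10.85) and Hoxd13 (10.59 and 10.35), the last expressed in digits and the genital tubercle. Imprinted genes were detected in full (24 of 24), with Gnas (15.82 and 15.77) and Dlk1 brightest and Slc22a18 (7.96 and 7.87) and Peg10 (7.0 and 7.06) dimmest. Genes of the cell cycle (24 of 24; median 12.75), the respiratory chain (22 of 22; median 13.76) and cytosolic ribosomal proteins (26 of 26; median 15.26) were all on. Pluripotency and gastrulation genes were detected in 17 of 20 cases (85%), near the 80.8% of all genes with a symbol. Of these, Zfp42 (1.83 and 1.15), Mixl1 (1.12 and 1.28) and Mesp1 (1.53 and 1.08) were off.

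Stat3, the gene altered in the other genotypes, read 10.83 and 10.87 in the 2 wild-type embryos at its brightest probe. Its other probe, also above background on both arrays, read 5.59 and 5.59. Its pathway had 22 of 24 members detected. The receptor chain Il11ra1 (12.76 and 12.85) and the phosphatase Ptpn11 (12.39 and 12.48) were brightest. The ligand genes Lif (1.69 and 2.28) and Il6 (2.86 and 2.96) were not above background in either embryo.

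Few genes of the large sensory receptor families were detected. Of 1068 olfactory receptor genes 187 were detected (17.5%), of 166 vomeronasal type 1 receptors 33 (19.9%), of 90 type 2 receptors 19 (21.1%), and of 38 taste receptors 9 (23.7%). Median signals of these 4 families lay between 1.46 and 1.92, close to the negative controls. Of the β-defensins 7 of 42 were detected (16.7%). A few probes in these families were bright, such as Olfr215 above and Olfr214 (13.89 and 14.01), and each of those 2 genes has 1 probe. By contrast, 361 of 369 Zfp zinc finger genes and 42 of 46 forkhead genes were detected.

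The 2 wild-type embryos were close to each other over most genes. Across the 23784 detected genes the log2 signals correlated at r = 0.997, a description across genes, which are not independent replicates. To set the embryos side by side each array was scaled to its 75th percentile, and a gene was taken at its brightest probe above background on both arrays. The difference, embryo 1 minus embryo 2, had an SD of 0.24 and a median size of 0.11 over genes. At least 2-fold apart were 113 genes (0.475%), 63 higher in embryo 1 (0.265%) and 50 higher in embryo 2 (0.21%). The share fell with signal, from 64 of the 5946 dimmest genes (1.08%) to 4 of the 5946 brightest (0.0673%). The 2 heterozygous embryos had 147 of 23854 genes 2-fold apart (0.616%) and the 2 homozygous embryos 480 of 22309 (2.15%). Both wild-type arrays and both heterozygous arrays carry the same scan date in their headers, and the homozygous arrays carry another. The part of the scan in these shares was not tested.

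**Figure D3:**
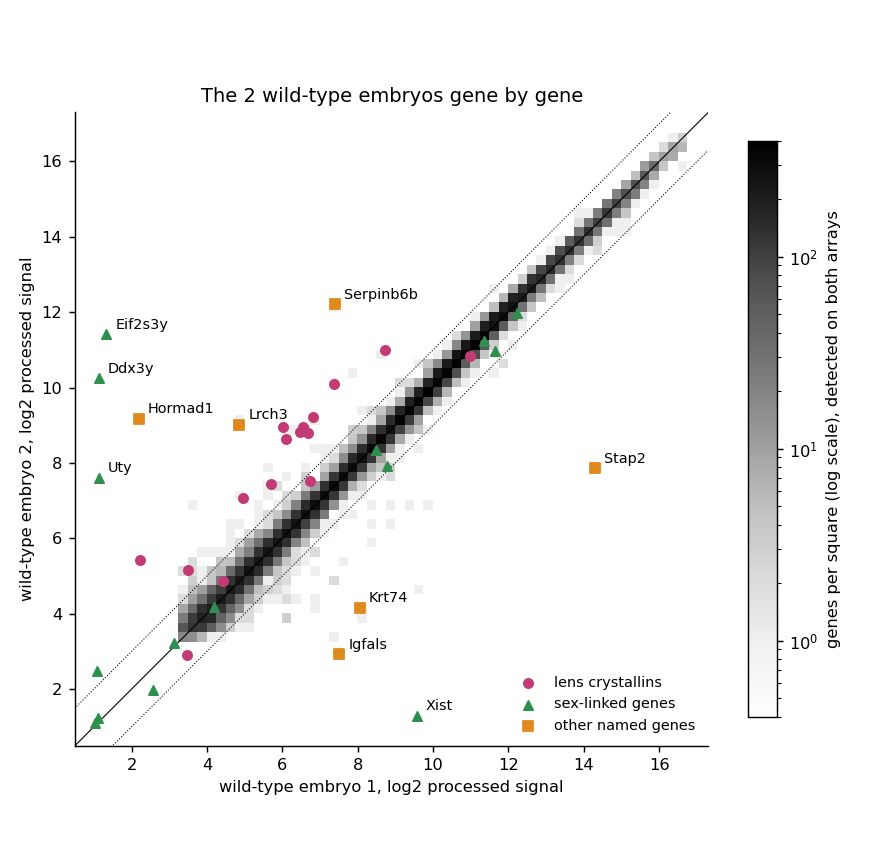
Log2 processed signal of embryo 1 (x axis) and embryo 2 (y axis); grey squares give the number of genes detected on both arrays (log colour scale), the solid line marks equal signal, dotted lines mark 2-fold before scaling, and named genes are coloured. Most genes lie along the diagonal. Lens crystallins other than Cryab and Crybb2 lie above it, Xist and Stap2 far below, and Eif2s3y, Ddx3y and Uty far above.

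The embryos differed in sex-linked transcripts. Xist, the RNA that silences an X chromosome in female cells, read 9.57 in embryo 1 and was not well above background in embryo 2 (1.29), at least 74.3-fold apart. Here and below, "at least" sets the bright embryo against the higher of the dim probe's own value and the lowest signal flagged above background on the dim array. The Y-linked genes went the other way. Eif2s3y, a translation initiation factor gene, read 1.33 and 11.42 (at least 268-fold higher in embryo 2), the RNA helicase gene Ddx3y 1.13 and 10.25 (at least 119-fold) and the demethylase-related gene Uty 1.13 and 7.61 (at least 19-fold).

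Of the other measured Y-linked genes Kdm5d (1.07 and 2.47), Usp9y (2.57 and 1.97), Zfy1 (1.03 and 1.09) and Zfy2 (1.11 and 1.24) were not above background in either embryo. Rbmy was not so at its brighter probe (3.14 and 3.22) and was above background in embryo 2 alone at the other (2.39 and 3.53), near the lowest signal that could be flagged. Sry, the testis-determining gene, read 4.19 and 4.18 at its probe, above background in both embryos. Embryo 1 read so although its Eif2s3y, Ddx3y and Uty were not above background. Whether this probe reads Sry transcript was not tested, so its flag is not evidence of Sry expression. The X-linked partners of Uty, Eif2s3y, Ddx3y, Usp9y and Kdm5d were higher in embryo 1 at their brightest probe. Kdm6a read 8.77 and 7.91 (a difference of 0.90), Eif2s3x 11.64 and 10.96 (0.72, but -0.33 at its second probe, which read 10.43 and 10.80), Ddx3x 12.24 and 11.97 (0.31), Usp9x 8.49 and 8.35 (0.18) and Kdm5c 11.35 and 11.22 (0.17). None of these 5 was 2-fold apart.

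Lens crystallins made up 11 of the 113 genes. Of 14 crystallin genes detected in both embryos, 11 were at least 2-fold higher in embryo 2, among 50 genes in that direction. The median difference over the 14 was -2.15, against 0.01 over all detected genes. Promoters of 4 crystallin genes are shown because these genes stand for what was seen: Cryaa and Crybb1 were 2-fold apart and carry the letters TGCTGA of the Maf recognition element, Crygf was the most different and lacks them, and Crygs carries them and differed by less than 2-fold. Each sequence is the 250 bases before the annotated start, from RefSeq on GRCm38.p6, written 5′ to 3′ on the strand of the gene: Cryaa at chr17:31677681-31677930 (plus strand), Crybb1 at chr5:112255570-112255819 (plus), Crygf at chr1:65926272-65926521 (plus) and Crygs at chr16:22811411-22811660 (minus). Capitals mark TGCTGA or its reverse complement TCAGCA, and TATAAA or its reverse complement TTTATA.
Cryaa: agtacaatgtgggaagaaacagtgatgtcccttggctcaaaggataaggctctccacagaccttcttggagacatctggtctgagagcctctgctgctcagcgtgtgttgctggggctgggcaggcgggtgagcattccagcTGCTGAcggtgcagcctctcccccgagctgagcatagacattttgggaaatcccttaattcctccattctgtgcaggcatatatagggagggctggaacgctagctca
Crybb1: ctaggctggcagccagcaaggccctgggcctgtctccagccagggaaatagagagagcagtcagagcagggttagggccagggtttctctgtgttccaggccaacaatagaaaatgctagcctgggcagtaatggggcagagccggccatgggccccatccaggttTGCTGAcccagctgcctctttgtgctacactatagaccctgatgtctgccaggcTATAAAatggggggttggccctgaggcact
Crygf: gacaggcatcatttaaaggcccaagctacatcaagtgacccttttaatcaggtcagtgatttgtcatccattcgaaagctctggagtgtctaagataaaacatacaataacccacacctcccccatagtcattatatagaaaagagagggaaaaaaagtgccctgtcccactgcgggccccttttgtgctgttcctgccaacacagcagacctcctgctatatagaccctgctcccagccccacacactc
Crygs: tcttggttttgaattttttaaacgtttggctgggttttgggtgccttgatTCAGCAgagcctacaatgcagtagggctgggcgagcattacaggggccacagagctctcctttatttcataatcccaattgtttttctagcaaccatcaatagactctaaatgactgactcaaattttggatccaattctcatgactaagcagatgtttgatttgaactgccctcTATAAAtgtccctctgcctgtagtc

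TGCTGA was found on either strand in 10 of the 15 crystallin promoters with a sequence, in 8 of the 11 whose genes were 2-fold apart, and in 16.1% of the 32851 mouse promoters in the table at the same length. TATAAA was found in 3 of the 15, in 2 of the 11, and in 12.4% of all. No stretch of letters can match both motifs in full. A match describes letters only, and the lack of one says only that these letters are not in this window.

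The 4 largest crystallin differences were of the γ-crystallins Crygf, Cryge, Crygc and Cryga, a class made in fibre cells. Crygf read 6.02 in embryo 1 and 8.94 in embryo 2 (7.38-fold higher in embryo 2; its second probe differed by -2.55). Cryge read 7.38 and 10.08 (6.32-fold), Crygc 6.09 and 8.65 (5.73-fold), Cryga 6.54 and 8.94 (5.15-fold) and Crygd 6.46 and 8.83 (5.02-fold). Crygb was above background in embryo 2 only (2.23 and 5.41). Crygn read 3.49 and 5.17 (3.10-fold), and Crygs, of later fibre cells, 4.42 and 4.85. Crygd, Cryge and Crygf have similar sequences, so a probe may read more than its own gene.

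Among the α- and β-crystallins, Cryaa, the lens α-crystallin chaperone, read 8.73 and 10.99 (4.64-fold higher in embryo 2, though its second probe, at 3.60 and 4.27, differed by -0.63). Cryba1 read 6.83 and 9.21 (5.06-fold), Cryba2 4.95 and 7.07 (4.24-fold), Crybb3 6.68 and 8.80 (4.23-fold) and Crybb1 5.69 and 7.45 (3.28-fold, with -1.95 at its second probe). Cryba4 was closer, at 6.74 and 7.52. Cryab, which muscle and other tissues also express, was the detected crystallin that was higher in embryo 1, at 10.98 and 10.83, a difference of 0.19. Crybb2 was near background in both (3.48 and 2.91).

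Setting the pair beside the other 4 embryos, embryo 1 was the one that stood apart in crystallins. On the scaled scale (log2 signal minus the 75th percentile of the array) all 11 crystallins were at least 2-fold lower in embryo 1 than in every other embryo of the 6. By the same rule in either direction, embryo 1 alone was apart for 34 of the 113 genes, these 11 included. Embryo 2 alone was apart for 25, and neither for 54. All 113 had been picked because the pair differed. The median over the 14 detected crystallins was -3.41 in embryo 1 and -1.13 in embryo 2, and between -1.70 and -0.69 in the other 4.

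**Figure D4:**
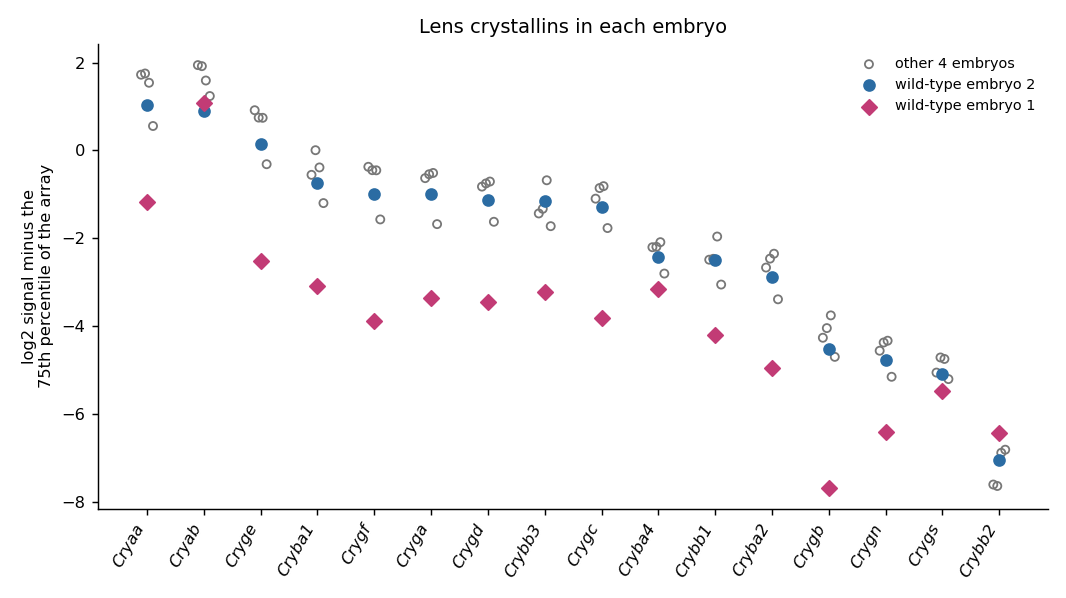
Log2 processed signal minus the 75th percentile of its array for 16 crystallin genes, in wild-type embryo 1 (diamonds), wild-type embryo 2 (filled circles) and the other 4 embryos of the study (open circles). For Cryge embryo 1 lies at -2.52 and every other embryo between -0.31 and 0.92. For Cryab embryo 1 lies above embryo 2, at 1.08 and 0.89.

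Other genes of the lens moved less. From a list added after the values were seen, 13 of 17 further lens genes were detected and their median difference was -0.26. Mip, the water channel of lens fibres, read 5.90 and 7.42, a difference of -1.48, and was the member past 2-fold. Eye field and retinal progenitor genes were lower in embryo 1 in 11 of 12 cases, with a median of -0.53 and none past 2-fold. Atoh7, of retinal ganglion cell progenitors, read 5.80 and 6.70, Rax 5.67 and 6.57, and Foxn4 6.01 and 6.75 (these 3 named after their values were seen).

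Forebrain genes showed the same direction. In a list also added after the values were seen, 22 of 23 detected members were lower in embryo 1, with a median difference of -0.52. This list shares Otx2, Six3, Six6, Lhx2, Vax1 and Rax with the eye field list, so the 2 lists are not separate groups. Eomes, of intermediate neuronal progenitors, read 7.96 and 8.94 (-0.94) and Dlx2 9.54 and 10.50 (-0.92). Otx1 (2.39 and 3.20) was not above background and Gsx2 (3.17 and 5.06) was so in 1 embryo. The median was -0.04 over 16 midbrain and hindbrain genes and -0.10 over 16 spinal cord genes. Progenitor genes were lower in embryo 1 in 18 of 21 cases (median -0.15) and neuronal genes in 19 of 23 (median -0.10). Against the other 4 embryos, embryo 1 was below all of them for 13 of the 23 forebrain genes and for 3 of the 12 eye field genes. These are ranks with no least margin: Lhx5 was at -0.884 in embryo 1 and -0.872 in the lowest of the other 4. Embryo 2 was above all 4 for 5 of the forebrain genes and 2 of the eye field genes, Six6 and Vax1, which are among those 5. The same shares over all detected genes were not counted, so these counts have no background to be read against.

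Heart genes went the other way. All 20 cardiac genes were higher in embryo 1, by 0.05 to 0.62, with a median of 0.29, and none was 2-fold apart. The largest was the difference of 0.62 for Mybpc3, a sarcomere protein (9.53 and 8.94). Skeletal muscle genes were higher in embryo 1 in 20 of 23 cases (median 0.17) and cartilage genes in 15 of 17 (median 0.14). Shifts of similar size were not limited to muscle and cartilage. Embryonic globins (4 of 4, median 0.27), adult globins (5 of 5, 0.16) and Hox cluster D (8 of 9, 0.17) were mostly higher in embryo 1. So were ribosomal protein genes (21 of 26, median 0.11). Genes of the mature lung (8 of 8, median -0.13) and respiratory chain (17 of 22, -0.04) were mostly lower there. Lists of fetal hepatocytes (median 0.06), erythroid and heme synthesis genes (0.00) and the cell cycle (0.01) were centred near 0. Over all detected genes 12346 of 23784 were higher in embryo 1, or 9966 without scaling.

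**Figure D5:**
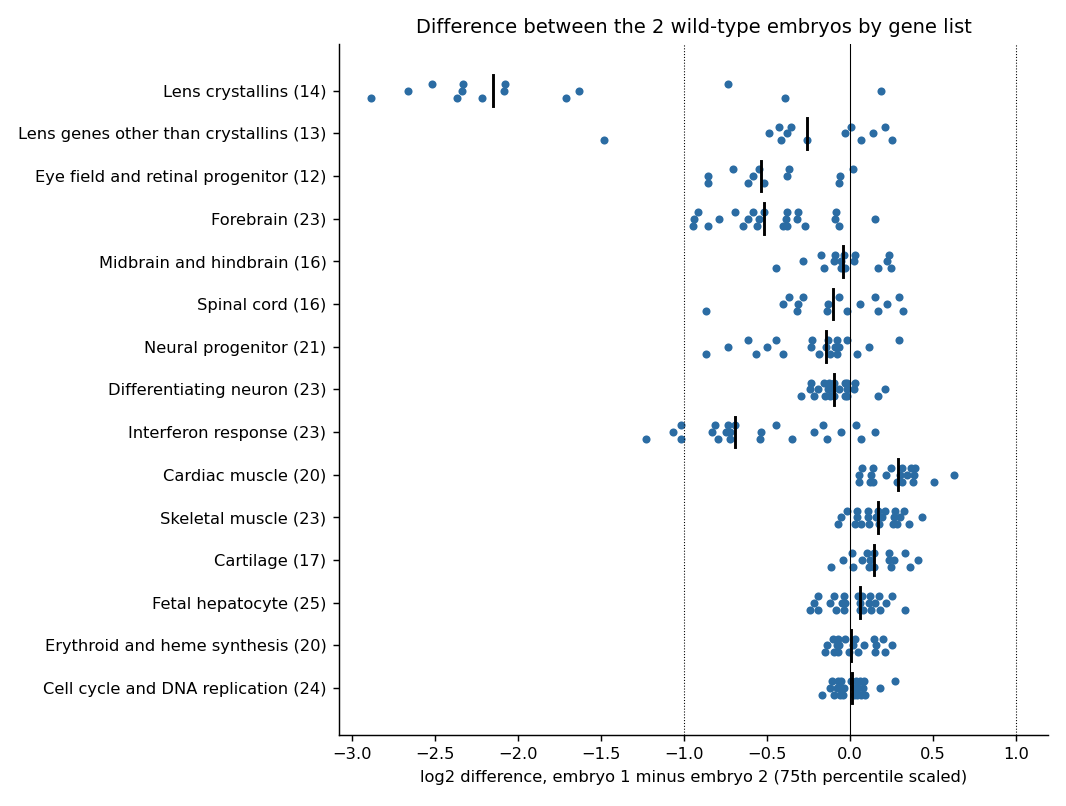
Log2 difference between the wild-type embryos (embryo 1 minus embryo 2, each array scaled to its 75th percentile) for the detected members of 15 gene lists (number in brackets); points are genes, black bars are list medians, dotted lines mark 2-fold. The median of the crystallins is -2.15, with genes from -2.88 to 0.19. The medians of the forebrain, eye field and interferon lists lie between -0.52 and -0.69, and cardiac genes all lie to the right of 0.

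Interferon-stimulated genes were a further group higher in embryo 2. Their list was added after the values were seen. Of 23 detected members 20 were lower in embryo 1, with a median of -0.69, and 4 were 2-fold apart: Oas1a (7.21 and 8.48, with -1.12 at its second probe), Rtp4 (8.2 and 9.31), Isg15 (8.39 and 9.45, with -0.70 at its second probe) and Oas2 (6.08 and 7.15). On the scaled scale Isg15 was at -1.51 in embryo 1 and -0.50 in embryo 2. Of the other 4 embryos 1 lay at 1.55 and the rest between -1.31 and -0.34. Embryo 1 was below the other 4 for 15 of the 23 genes, and embryo 2 for 1. These too are ranks with no least margin: Oasl2 was at -2.072 in embryo 1 and -2.069 in the lowest of the other 4. Here too the share over all detected genes was not counted.

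Outside these groups the largest differences were of genes read by a single probe. Stap2, an adaptor that binds STAT3, read 14.29 in embryo 1 and 7.86 in embryo 2, which is 89.1-fold, and between 8.06 and 8.38 in the other 4 embryos. Serpinb6b, a protease inhibitor, read 7.40 and 12.21, 27.1-fold higher in embryo 2, against 7.54 to 8.09 elsewhere. Krt74 (8.06 and 4.16), a keratin gene that the RefSeq table lists as a transcribed pseudogene, was 15.4-fold higher in embryo 1, and Zkscan2 (9.75 and 6.83), Adm2 (6.81 and 4.26) and Zc3h12a (7.58 and 5.32) were also higher there. Lrch3 (4.85 and 9.02) was 17.4-fold higher in embryo 2, followed outside the crystallins by Exoc3l4 (7.97 and 10.36) and Slc1a7 (5.71 and 7.77). For Olfr1466 (6.8 and 4.19) and Wfdc13 (8.47 and 6.83) embryo 2 was the one apart from the other 5.

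Other members of the 15 largest in embryo 1 were smaller or split between probes. Plcb4 read 8.82 and 6.37 at its brightest probe and differed by 0.09 at the other, and Rbm41 (5.76 and 4.36) by -0.07. Klf17 (6.12 and 4.46), Zc2hc1c (5.09 and 3.51), Tdrd9 (5.50 and 4.13), Mark4 (6.46 and 5.09) and Mmp16 (6.66 and 5.30) were 2.64- to 3.27-fold higher in embryo 1. Of the 113 genes 101 rested on 1 detected probe. Among the 12 with a further detected probe, 5 were 2-fold apart in the same direction at their second brightest one, and these were Crybb1, Crygc, Crygf, Oas1a and a transcript without a symbol.

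Some of these single-probe differences lay side by side on the array. For 34 of the 113 genes another gene spot within 2 rows and 2 columns was also at least 2-fold apart in the same direction. Over all spots above background, 10.01% had a neighbour higher in embryo 1 and 10.14% one higher in embryo 2, whereas 36.3% of the 463 spots 2-fold apart had a neighbour in their own direction. Adm2, Klf17, Zc2hc1c, Rbm41, Exoc3l4 and Slc1a7 were among the 34. No crystallin was, nor were Stap2, Serpinb6b, Krt74, Zkscan2 or Lrch3. The part of array position in the differences was not tested.

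A further 1185 probes were above background in 1 embryo only, and 131 of them differed by a bound of at least 2-fold, 61 higher in embryo 1 and 70 in embryo 2. Besides Xist, the largest bounds in embryo 1 were those of Igfals, at 7.51 and 2.92 (at least 17.8-fold), Olfr816, at 6.64 and 1.11 (at least 9.75-fold), Rbm31y (at least 5.88-fold), Enpp6 (at least 5.51-fold) and Xlr5b (at least 3.93-fold). Tm7sf3 (at least 3.78-fold), Mchr1, H2-M9 and Dcun1d3 came next, and the 2 other probes of Tm7sf3 differed by -0.01 and 0.02. In embryo 2 they were, besides the Y-linked genes, those of Hormad1, a meiotic chromosome protein, at 2.19 and 9.17 (at least 56.2-fold), Fhl4, at 1.00 and 6.73 (at least 10.4-fold), Chrnb3 (at least 8.04-fold), Cwh43 (at least 7.79-fold), Olfr67 (at least 6.2-fold), Ccdc70 (at least 5.91-fold) and Vmn1r191 (at least 5.81-fold). Of the 131 probes 61 had a neighbouring spot 2-fold apart in the same direction, among them those of Enpp6, Xlr5b, Tm7sf3 and Mchr1 in embryo 1 and of Hormad1, Uty, Fhl4, Ccdc70 and Vmn1r191 in embryo 2. Hormad1 (1.01 and 1.1), Olfr67 (2.93 and 3.03), Ccdc70 (1.23 and 1.29) and H2-M9 (1.43 and 1.08) each have a second probe, which was above background in neither embryo.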

How the data were processed

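The deposited files are 1-colour scanner output that, per the file headers, holds spot intensity with background subtracted and spatially detrended, and flags for signal over background, outliers and saturation. Agilent Feature Extraction 11.0.1.1 is named in the submitters' processing notes. A value table by the authors, on the log2 scale with medians of 6.72 and 6.72 in the wild-type columns, served as an alternative. Its method of normalization is not given in the sources used here. Control spots (1377) and outlier spots (183 and 189) were left out, spots of a probe were averaged, and 39385 probes were measured on both arrays. No spot was saturated. Probe accessions were named through a RefSeq table of GRCm38.p6 (27234 probes, 69.1%), used for names only, since the array was designed on mm9. Levels are log2 intensity without scaling, and a gene is shown at its brightest probe. Differences were scaled to each array's 75th percentile. With 1 array per embryo no test was run. Counting past 2-fold was checked on simulated data whose noise was the spread of repeat spots within an array. That is smaller than the spread between the embryos, so the check covers the counting and not the reliability of single genes. Background correction by normexp used R 4.3.3 and limma 3.58.1.

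The gene lists and the genes were chosen with earlier results of these data known. Named were the 25 brightest genes, the 2 brightest and 2 dimmest members of a list with its undetected ones, the 15 largest differences and 10 largest bounds each way, the sex-linked genes and Stat3, from genes with a plain symbol. A few genes that this rule names are not reported here. Any other gene named, such as the remaining crystallins, Mybpc3, Mip, Olfr214, Klf6, Fos and the forebrain, retinal and interferon examples, was chosen after its values were seen. The lists of other lens, forebrain, midbrain and hindbrain, spinal cord and interferon genes, the comparison with the other 4 embryos and the check of neighbouring spots were added after the data were seen.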

Additional observations from a re-analysis of the deposited data

How the results depend on the processing

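The number of detected genes (23784) ranged from 16679, for genes with a symbol only, to 28113, for signals significantly above background by the scanner software's looser flag, and from 24155 to 24429 when either embryo was left out. The 25 brightest genes were the same in the authors' value table and shared 23 with normexp values. The number of genes 2-fold apart depended on the settings. It was 113 with 75th percentile scaling, 115 without scaling and 113 in the authors' table. With normexp (offset 50) it was 38 after 75th percentile scaling and 37 after quantile normalization. Requiring signal over background in 1 embryo gave 397, no filter gave 1047, and the second brightest probe gave 16 of 4552. A fold of 1.5 gave 446 and a fold of 4 gave 32. Without spots that had a deviating neighbour, an alternative added after the data were seen, 79 genes remained, 42 higher in embryo 1 and 37 in embryo 2.

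Crystallins were lower in embryo 1 for 13 of 14 genes under each of these scalings, with medians from -2.19 to -1.61. The cardiac list was higher in embryo 1 for 20 of 20 genes under each, with medians from 0.19 to 0.29. Interferon genes had medians from -0.74 to -0.36 and forebrain genes from -0.56 to -0.32. No paired analysis was possible because each embryo was measured on 1 array and none was repeated. Klf17, Zc2hc1c, Rbm41, Tdrd9, Mark4, Mmp16 and Crygn fell under 2-fold with normexp, which was run on the median spot signal. Signals near 3.32, the lowest above background, cannot rank genes, and with 1 array per embryo, embryo and array cannot be told apart.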

Other observations

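Several genes in lists of mature or absent tissues were bright while other members of the same list were off. Detected were 13 of 19 trophoblast genes, 2 of 8 milk genes, 9 of 14 pituitary genes and 11 of 16 pancreatic enzymes. Gcm1, a regulator of the placental labyrinth, read 15.65 in embryo 1 and 15.89 in embryo 2, and 3 of its 4 probes were above background, while the trophoblast genes Prl8a8 (1.01 and 1.1) and Tpbpa (1.17 and 1.28) were at the level of negative controls. Lalba, a milk protein, had a mean of 9.97 at its only probe, while the caseins Csn2 (1.11 and 1.25) and Csn3 (1.00 and 1.07) were off. In the pituitary list the regulator Pitx1 (12.99 and 12.97), which is also in the limb and face mesenchyme list, was bright. The hormone genes Gh (1.03 and 1.08), Prl (1.06 and 1.99) and Fshb (1.17 and 1.31) were off. Among pancreatic enzymes Ctrb1 (9.02 and 8.89) was detected and Cela2a (1.26 and 1.08) and Cuzd1 (1.15 and 1.26) were not.

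Immediate early genes, which respond within minutes to handling or signals, were close in the 2 embryos. The difference ranged from -0.21 to 0.42 over the 22 detected of 24. Jund read 13.58 and 13.49, Klf6 11.33 and 11.33 and Fos 8.91 and 9.01. Nr4a3 (1.15 and 1.25) and Egr3 (2.96 and 2.70) were not above background.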
